A study of Ovis aries with 40 samples.

Results

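Gene expression in the longissimus muscle (LM) was compared between the progeny of sire 16 and the progeny of sire 5, 8 Poll Dorset sheep of each, out of a series of 40 sheep with 1 array per animal. The 16 animals were chosen by the sire named in the sample titles, within the label of low muscling. In the series, the progeny of 6 sires were classed as high or low by the estimated breeding value (EBV) of the depth of the eye muscle, a prediction of inherited depth of the LM measured in cross section. Sires 16, 5 and 17 had the low label and sires 11, 2 and 7 the high label, so that sires 16 and 5 stand for different families at the same class of breeding value.

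All 16 animals were of the same breed and age (78 weeks) and carried the same low label. They were reared under the standards of the Australian industry and received no treatment. The LM was dissected at a fixed site, no later than 15 minutes after euthanasia, and 5 microg of total RNA was labelled with biotin and hybridised to a bovine array. The labels give no sex, dam, litter, date or batch. Each family had 1 sire, so that the alleles of the sire and anything else shared by his progeny cannot be told apart, and p-values measure the spread between progeny of 1 sire.

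The LM is a large muscle of the back in which fast fibres prevail. Its fibres contract through myosins, actins and troponins that come in fast and slow forms, and take ATP from glycolysis and from the mitochondria. Fibre mass depends on the balance of protein synthesis on ribosomes and breakdown by the proteasome and by autophagy, with myostatin as a known brake on growth, and the tissue between fibres holds fat cells, fibroblasts, vessels and immune cells whose RNA is part of the sample.

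The values were MAS5 signals, a measure of the brightness of the probes for a transcript on a linear scale, set by the authors to a trimmed mean of 200 on every array. The median signal of an array was between 56.1 and 67. Over the 6360 genes tested, the median Pearson correlation between arrays was 0.954 within sire 16, 0.949 within sire 5 and 0.953 between the families. The markers of skeletal muscle were present in every animal. TNNC2, the fast troponin C, had signals of 26185 to 30489 in the progeny of sire 16 and of 24330 to 31438 in those of sire 5. Of 6 measures of the arrays and the RNA (median signal, spiked controls, 3′ to 5′ ratios of GAPDH and actin, and scores on the first 2 principal components), none differed between the families in exact two-sided permutation tests (adjusted p = 0.512 to 0.792).

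3 animals stood apart from the other 13. On the first principal component, which held 14.4% of the variance, progeny 32 of sire 5 had a score of 34.03, progeny 94 of sire 5 and progeny 65 of sire 16 each had 21.8, and the others had less than 0. Progeny 65 also stood alone on the second component, with a score of -37.7. Compared with the median of the other 15 animals, the signal was at least 2-fold off in 495 genes in progeny 65, in 450 genes in progeny 32 and in 390 genes in progeny 94. In the other 13 animals it was at least 2-fold off in 148 to 287 genes. The labels do not set these 3 animals apart, and values without them are given beside the results that moved most.

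**Figure D1:**
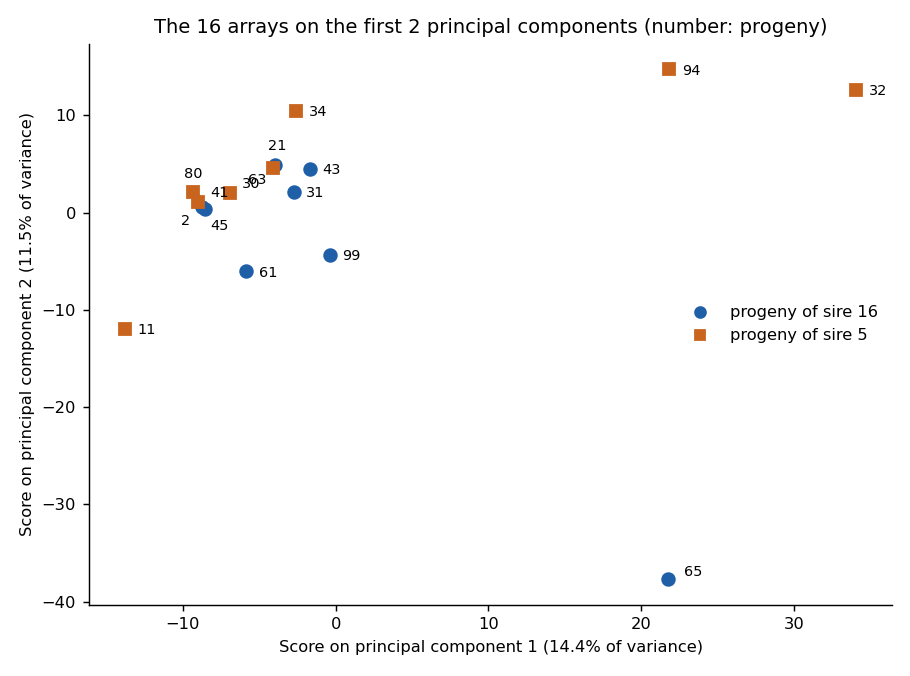
Scores of the 16 arrays on the first and second principal component of the log2 signals of 6360 genes (axes in score units, with the percent of the variance), circles for progeny of sire 16 and squares for progeny of sire 5, numbered by progeny. Progeny 32 and 94 of sire 5 and progeny 65 of sire 16 have scores above 20 on the first component, and progeny 65 has -37.7 on the second, while the animals of both families mix among the other 13.

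No gene passed the test between the families. With limma on log2 signals and Benjamini-Hochberg adjustment over 6360 genes, 0 genes (0.0%) had an adjusted p under 0.05, and the smallest adjusted p was 0.0991. Some other settings called 1 or 2 genes, always among TIMELESS, LRRC2 and CIBAR1. At an unadjusted p under 0.05 there were 397 genes (6.24%), of which 155 (2.44%) were higher in the progeny of sire 16 and 242 (3.81%) lower. Whatever the p, 53.3% of all genes tested had less signal in sire 16 and 46.7% more. The families did not overlap in 3 genes (0.0472%), namely TIMELESS, SLC25A16 and PPP4R3B. A difference of at least 1 on the log2 scale was found in 21 genes (0.33%), against a median size of 0.12.

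The design gave bounds on the differences that were missed. The 95% confidence interval of the difference lay within 2-fold in 5739 genes (90.2%) and within 1.5-fold in 4253 genes (66.9%). On simulated data of this design, 81.4% of genes given a log2 difference of 1 were called, and 38.4% of those given 0.5. The number of arrays limits this precision.

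**Figure D2:**
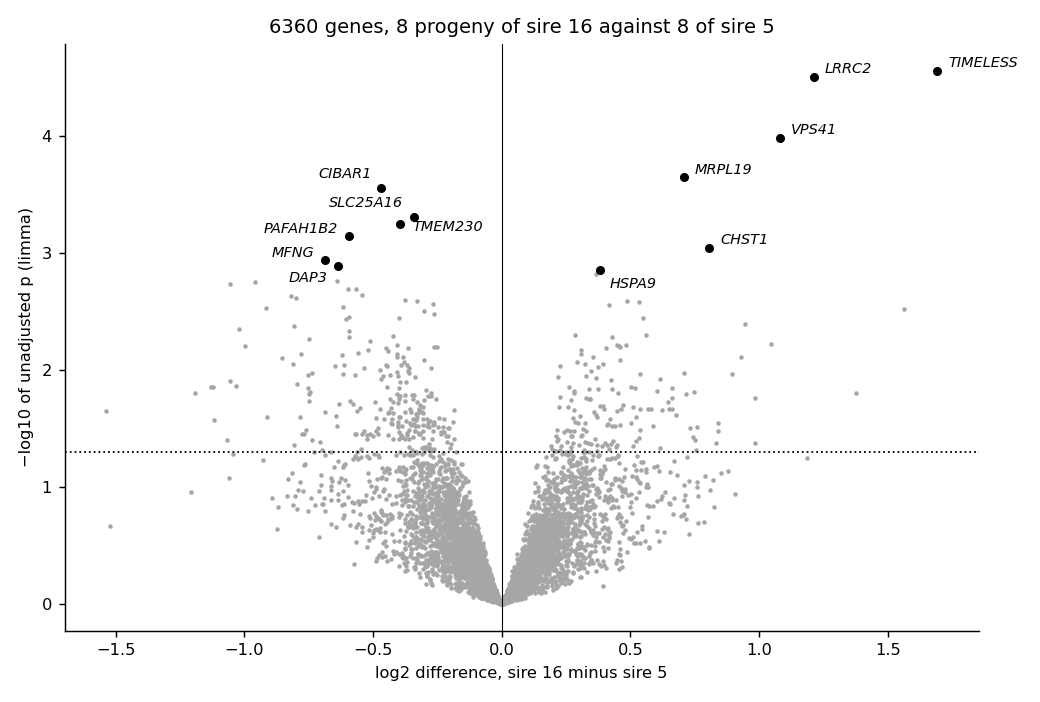
Log2 difference of each of 6360 genes (horizontal axis, sire 16 minus sire 5) against the −log10 of its unadjusted p in limma (vertical axis), with the dotted line at a p of 0.05. The 12 leading genes are named and shown in black, with TIMELESS at 1.69 and LRRC2 at 1.21 at the top right, and none passed the adjusted threshold.

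The genes closest to a call were TIMELESS and LRRC2, both with more signal in the progeny of sire 16. TIMELESS, which encodes a protein of the replication fork, had signals of 83.9 to 126.6 in the progeny of sire 16 (median 97) and of 15.7 to 69.8 in those of sire 5 (median 28.15). All 8 progeny of sire 16 were above all 8 of sire 5, with 3 of the latter (progeny 41, 63 and 80) nearer to the other family at 49.7 to 69.8. The log2 difference was 1.69 ± 0.30 (SE, n = 8 and 8), or 3.23-fold, with an adjusted p of 0.0991 in limma. Its size depends on dim signals, since 5 of the 8 progeny of sire 5 lay under 34.7. That is the 20th percentile over 9155 genes, with 1 probe set each, on the 16 arrays. With every signal under that value raised to it, the difference was 1.23, or 2.34-fold, with an adjusted p of 0.00678. Without progeny 41 of sire 5 the adjusted p was 0.0277, and without progeny 63 it was 0.0442.

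LRRC2, a leucine-rich repeat protein, had signals of 352.3 to 941.7 in the progeny of sire 16 (median 847.55) and of 175 to 507.5 in those of sire 5 (median 333.9). Here 7 of the 8 progeny of sire 16 were above every animal of sire 5, and the exception was progeny 65, which stands apart, at 352.3. The log2 difference was 1.21 ± 0.22 (SE), or 2.32-fold, with an adjusted p of 0.0991. Without progeny 65 the difference was 1.37 and the adjusted p 0.00387, and without the 3 animals that stand apart it was 1.197 with an adjusted p of 0.00127.

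4 further genes led among those with more signal in the progeny of sire 16. VPS41, a subunit of a complex for fusion with the lysosome, had 104.5 to 274.8 in sire 16 and 44.7 to 110.1 in sire 5, a log2 difference of 1.08 ± 0.22 (SE, adjusted p = 0.218). MRPL19, a protein of the mitochondrial ribosome, had 323.5 to 575.9 against 197 to 370.3, a difference of 0.71 ± 0.15 (adjusted p = 0.354). In both genes, 7 of the 8 progeny of sire 16 were above all of sire 5. CHST1, a sulfotransferase of the Golgi, differed by 0.81 ± 0.20 (adjusted p = 0.631), and HSPA9, the chaperone of the mitochondrial matrix, by 0.38 ± 0.10 (adjusted p = 0.639). The range of HSPA9 was 1843.5 to 2556.3 in sire 16 and 1256.9 to 2006.3 in sire 5, and the families overlapped.

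The 6 leading genes with less signal in the progeny of sire 16 had smaller differences. CIBAR1, which encodes a protein with a BAR domain, had 964 to 1276.8 in sire 16 (median 1162.55) and 1232.2 to 1990.1 in sire 5 (median 1580.6), a log2 difference of -0.47 ± 0.10 (SE, adjusted p = 0.354). SLC25A16, a carrier of the mitochondrial inner membrane, had 162.1 to 193.2 against 206.4 to 274.8, a difference of -0.34 ± 0.08 (adjusted p = 0.509). The families of SLC25A16 did not overlap, since its standard deviation was small in both (0.09 in sire 16 and 0.14 in sire 5, log2). TMEM230, a membrane protein of vesicles, differed by -0.40 ± 0.09 and PAFAH1B2, a catalytic subunit of a platelet-activating factor hydrolase, by -0.59 ± 0.14. MFNG, a glycosyltransferase that modifies Notch receptors, differed by -0.69 ± 0.18, and DAP3, a protein of the small subunit of the mitochondrial ribosome, by -0.64 ± 0.16. The adjusted p of these 4 genes was 0.509 to 0.639. PPP4R3B, a regulatory subunit of protein phosphatase 4, was without overlap (433.4 to 537.7 against 556.5 to 692.2) at a difference of only -0.26 ± 0.08 (adjusted p = 0.639).

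**Figure D3:**
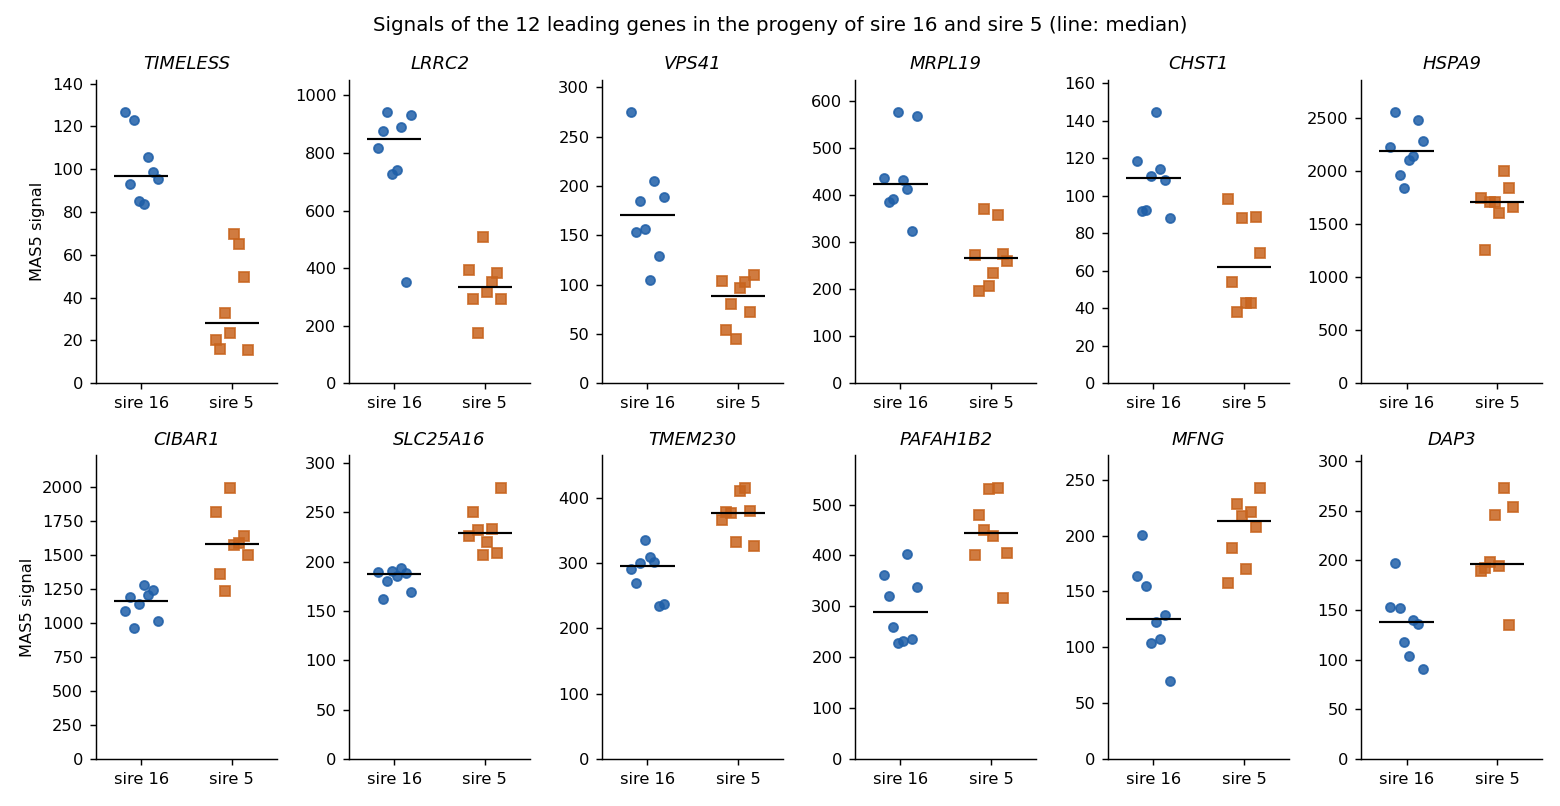
MAS5 signal of the 12 leading genes (vertical axes, linear from 0) in the 8 progeny of sire 16 (circles) and the 8 progeny of sire 5 (squares), 1 point per animal with the median as a line. TIMELESS and SLC25A16 do not overlap, and in LRRC2 only progeny 65 of sire 16, at 352.3, lies among the progeny of sire 5.

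Where a gene had more than 1 probe set, the others did not always move with the set used. The other probe set for TIMELESS had a lower mean signal and differed by -0.47, in the opposite direction. That for LRRC2 differed by 0.40 and that for VPS41 by 0.17, while a dim one for HSPA9 differed by -0.22. When all probe sets of a gene were averaged, the log2 difference was 0.61 in TIMELESS (adjusted p = 0.821), 0.81 in LRRC2 (adjusted p = 0.684), 0.63 in VPS41 (adjusted p = 0.275) and 0.08 in HSPA9 (adjusted p = 0.982). The reason for the discordance was not tested. MRPL19, CHST1 and the 6 leading genes with less signal in sire 16 had 1 probe set each.

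The third family with the low label, the 5 progeny of sire 17, had a mean between those of sires 16 and 5 in 10 of the 12 leading genes. Over all 6360 genes tested the mean of sire 17 lay between in 1160. The 12 genes were chosen for a wide gap between sires 16 and 5, in which another mean is more likely to fall, so the counts do not set them apart. In TIMELESS, the progeny of sire 17 had 60.9 to 131.5 (median 84.7), nearer to sire 16, and the medians of sires 11, 2 and 7 of the high label were 78.5, 54.4 and 84.45. The low signals of sire 5 were thus the outer ones of 6 families for this probe set. In LRRC2, the median was 452.4 in sire 17, 674.2 in sire 2 and 474.25 in sire 7, and sire 11 had the highest at 1368.8. For LRRC2, sire 5 thus had the lowest median of the 6 families, while sire 16 did not have the highest. No test was made between these families.

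For the listed genes of skeletal muscle and its fibre types, differences of 2-fold or more lay outside the bounds of the comparison. ACTC1, the cardiac actin, was not in these lists, and its 95% interval was wider, at -0.89 to 1.83. None of 12 markers of skeletal muscle, 10 fast fibre genes and 13 slow fibre genes was called, and the 95% interval of each lay within 2-fold. CKM, the muscle creatine kinase, differed by 0.02 ± 0.08 (SE, log2), and by -0.03 after quantile normalization. MYH1, a fast myosin heavy chain, differed by 0.04 ± 0.07, and MYH7, the slow myosin heavy chain, by 0.09 ± 0.17, and by -0.18 with the mean over its probe sets. Their medians were 28957.65, 20817.55 and 15272.7 in sire 16, and 28248.15, 20345.05 and 13274.85 in sire 5. MYBPC1, a myosin-binding protein of slow fibres, had 11040.6 to 17305.8 against 13058 to 15533.5, a difference of -0.14 ± 0.10. The lowest p among fast fibre genes was that of PFKM, the muscle phosphofructokinase of glycolysis, with 9769.5 to 13127 in sire 16 and 6942.4 to 10684.5 in sire 5 (difference 0.29 ± 0.10, adjusted p = 0.675). The other probe sets for PFKM differed by 0.25 and 0.36. TPM2, the beta-tropomyosin, had 9991 to 12574.2 against 12248.3 to 15943.3, a difference of -0.26 ± 0.08 (adjusted p = 0.65), with 1 probe set more at -0.24.

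In energy metabolism, the median difference over the 16 animals is given by list, beside that of all genes tested, which was -0.01. It was 0.08 over 20 genes of glycolysis and glycogen, -0.05 over 76 of oxidative phosphorylation, 0.01 over 16 of the tricarboxylic acid cycle and 0.09 over 25 of fatty acid oxidation. In glycolysis and glycogen 16 of 20 genes were higher in sire 16, and in the tricarboxylic acid cycle 10 of 16, against 46.7% of all genes. Without the 3 animals that stand apart, the median was 0.13 in glycolysis and glycogen, with 20 of 20 genes higher. It was then 0.13 in the tricarboxylic acid cycle, with 14 of 16, and 0.08 in fatty acid oxidation. Over all genes it was -0.01, with 3107 of 6360 higher. In the glycolysis list, each of the 3 animals had a mean above all 13 others. In the tricarboxylic acid cycle, progeny 32 and 94 of sire 5 did, at 11.47 and 11.49 against at most 11.38. Leaving out 2 high animals of sire 5 thus moves these medians toward sire 16. No member of these lists was called. At an unadjusted p under 0.05 was 1 gene of oxidative phosphorylation (1.32%), against 6.24% over all genes. This was UQCR10, a subunit of complex III, with 1573.1 to 2988.7 in sire 16 and 2225.2 to 3783.8 in sire 5 (difference -0.54 ± 0.15, adjusted p = 0.639). Of the 76 genes, 60 had a negative difference, against 53.3% of all genes, and 30 without the 3 animals that stand apart, when the median was 0.02. All 76 intervals lay within 2-fold. Pairs of the 76 genes had a median correlation of 0.482 over the 16 arrays with family means removed, and do not count as separate observations.

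Genes of protein synthesis and breakdown were not called either. Of 62 ribosomal protein genes, 53 had less signal in sire 16, against 53.3% of all genes, with a median of -0.08, and all 62 intervals lay within 2-fold. 5 of the 62 (8.06%) had an unadjusted p under 0.05, all with less signal in sire 16, against 3.81% of all genes. With each animal left out that count was 1 to 8, the lowest without progeny 11 of sire 5 (2 or 3 without progeny 21, 31 or 99 of sire 16) and the highest without progeny 43 of sire 16. RPL13 had 8069.8 to 9861.5 in sire 16 and 9708.5 to 13609.4 in sire 5 (difference -0.30 ± 0.09, adjusted p = 0.645), and RPS6, a protein of the small subunit, differed by -0.31 ± 0.13 (adjusted p = 0.718). Without the 3 animals, 55 of the 62 were lower, at a median of -0.09, so this direction did not rest on them. Ribosomal protein genes had a median correlation of 0.521 between pairs over the 16 arrays with family means removed, and do not count as separate observations. The 61 mitochondrial ribosomal protein genes had a median of -0.01, with MRPL49 at 0.27 ± 0.10 and MRPL42 at -0.22 ± 0.09, and the 30 proteasome subunits had 0.01. PSMD4, a ubiquitin receptor of the proteasome, had 2957.9 to 3916.2 in sire 16 and 2336.2 to 3115.7 in sire 5 (difference 0.23 ± 0.09, adjusted p = 0.705), and PSMD9, an assembly chaperone of the proteasome, differed by 0.33 ± 0.12 (adjusted p = 0.675).

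The genes best known for muscling in sheep were close between the families. MSTN, which encodes myostatin, had 64.1 to 174.1 in sire 16 (median 97) and 47.6 to 161.3 in sire 5 (median 111.85), a log2 difference of 0.13 ± 0.27 (SE, adjusted p = 0.957). IGF2, an imprinted growth factor, differed by -0.12 ± 0.16 (-0.26 without the 3 animals that stand apart), and DLK1, the imprinted gene of the callipyge region, by -0.04 ± 0.20. The 95% interval was -0.44 to 0.70 in MSTN, -0.45 to 0.21 in IGF2 and -0.45 to 0.38 in DLK1, so that a 2-fold difference lay outside each. These values are of 1 probe set per gene. The other probe set for MSTN differed by -0.10, in the opposite direction, and that for DLK1 by -0.16. Those for IGF2, all dimmer, differed by -0.23, -0.22 and 0.42. Of 29 genes of myostatin, activin and insulin-like growth factor signalling, 0 had an unadjusted p under 0.05. Of 15 imprinted genes, 2 did (13.3%, against 6.24% of all genes), both with less signal in sire 16, and 1 did without progeny 31 of sire 16 or without progeny 11 or 32 of sire 5. NDN, which encodes necdin, had 294.7 to 519.3 against 371.3 to 648.3 (difference -0.41 ± 0.13, adjusted p = 0.675), and NNAT, which encodes neuronatin, differed by -0.77 ± 0.34 (adjusted p = 0.729). Of 10 genes in the list of myogenic regulators and satellite cells, 2 (20%) had an unadjusted p under 0.05, and 1 to 2 with each animal left out. They were MYH3 and SPG21, which differed by -0.50 ± 0.22 (adjusted p = 0.729). SPG21 encodes maspardin and is not a myogenic regulator, so the share is not to be read as one of myogenic genes. MYH3, the embryonic myosin heavy chain, had 50.1 to 103.8 against 80.9 to 141 (difference -0.51 ± 0.16, adjusted p = 0.675).

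Among the lists of other functions, antioxidant and detoxification enzymes had 7 of 37 members (18.9%) at an unadjusted p under 0.05, against 6.24% over all genes tested, with 5 lower in sire 16 and 2 higher. That count was 4 without the 3 animals that stand apart, and 3 with the spiked controls as a covariate. MGST1, a microsomal glutathione transferase, had 114.9 to 268.5 in sire 16 and 150 to 1294.4 in sire 5 (difference -1.03 ± 0.37, adjusted p = 0.705), the highest being progeny 94. Without the 3 animals that stand apart the difference was -0.63. GPX4, the peroxidase of lipid peroxides, had 1908.7 to 2447.1 against 1536.3 to 2293.9 (difference 0.26 ± 0.10), and PRDX1, a peroxiredoxin, had 3067.7 to 4403.6 against 3380.3 to 6284.9 (difference -0.35 ± 0.13). The families overlapped in all 3 genes, and the members had a median pairwise correlation of 0.0597 over the 16 arrays.

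No gene of immune cells or of the interferon response was called. Counts of genes with less signal in sire 16 are to be read against 53.3% of all genes. Those without the 3 animals are to be read against 3253 of 6360. Of 18 interferon-stimulated genes, 15 had a negative difference, at a median of -0.19, and 13 without the 3 animals, at -0.13. RSAD2, an antiviral enzyme, had 38.2 to 88 against 59.6 to 143.3 (difference -0.47 ± 0.19, adjusted p = 0.713), and PARP14 differed by -0.44 ± 0.15 (adjusted p = 0.675). Of 19 genes of antigen presentation, 11 had a negative difference, at a median of -0.16, and 14 without the 3 animals, at -0.28. PSMB9, a subunit of the immunoproteasome, had 589.5 to 1055.6 against 667.6 to 1431.4 (difference -0.35 ± 0.15, adjusted p = 0.736), and BOLA-DQA2, a chain of the class II histocompatibility complex, differed by -0.56 ± 0.27 (adjusted p = 0.798). Of 23 markers of macrophages and leukocytes, 16 had a negative difference, at a median of -0.11, and 20 without the 3 animals, at -0.24, while 0 had an unadjusted p under 0.05. Their summed signal was 3287.5 to 6524.2 in sire 16 and 3568.4 to 6248 in sire 5. Pairs of these markers had a median correlation of 0.418 over the 16 arrays with family means removed. It was 0.282 in interferon-stimulated genes and 0.276 in antigen presentation, and members do not count as separate observations. In whole muscle, fewer cells of a type and less RNA per cell cannot be told apart. The lysosomal proteases CTSD and CTSS, which macrophages also express, differed by -0.75 ± 0.28 and -0.75 ± 0.29 (adjusted p = 0.705 and 0.706). Another, CTSC, had 128.2 to 189.7 in sire 16 and 17.8 to 142.1 in sire 5, the other way at 0.75 ± 0.34 (adjusted p = 0.744), with progeny 32 at 17.8. Without the 3 animals its difference was 0.41.

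Matrix and vessel genes also had no call. Of 41 genes of the fibrillar and basement membrane matrix, 27 had less signal in sire 16 (against 53.3% of all genes), at a median of -0.12, or of -0.06 without the 3 animals that stand apart. 4 (9.76%) had an unadjusted p under 0.05, each with less signal in sire 16, against 3.81% of all genes. That count was 1 without progeny 94 of sire 5, and 2 without progeny 41 of sire 5 or progeny 21 or 99 of sire 16. FBLN5, a protein of elastic fibres, had 280.1 to 461.9 in sire 16 and 275.7 to 613.8 in sire 5 (difference -0.40 ± 0.16, adjusted p = 0.712). LAMB1, a laminin chain of the basement membrane, had 210.8 to 469.5 against 223.4 to 810.9 (difference -0.57 ± 0.25, adjusted p = 0.729), and OGN, a small proteoglycan, differed by -0.30 ± 0.12 (adjusted p = 0.713). The families overlapped in these genes. Of 17 endothelial markers, 1 had an unadjusted p under 0.05, ROBO4, with 50.9 to 164 against 112.2 to 204.3 (difference -0.52 ± 0.23, adjusted p = 0.742). The medians were -0.03 over these 17, -0.06 over 17 fibroblast markers and -0.08 over 13 markers of smooth muscle and pericytes.

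**Figure D4:**
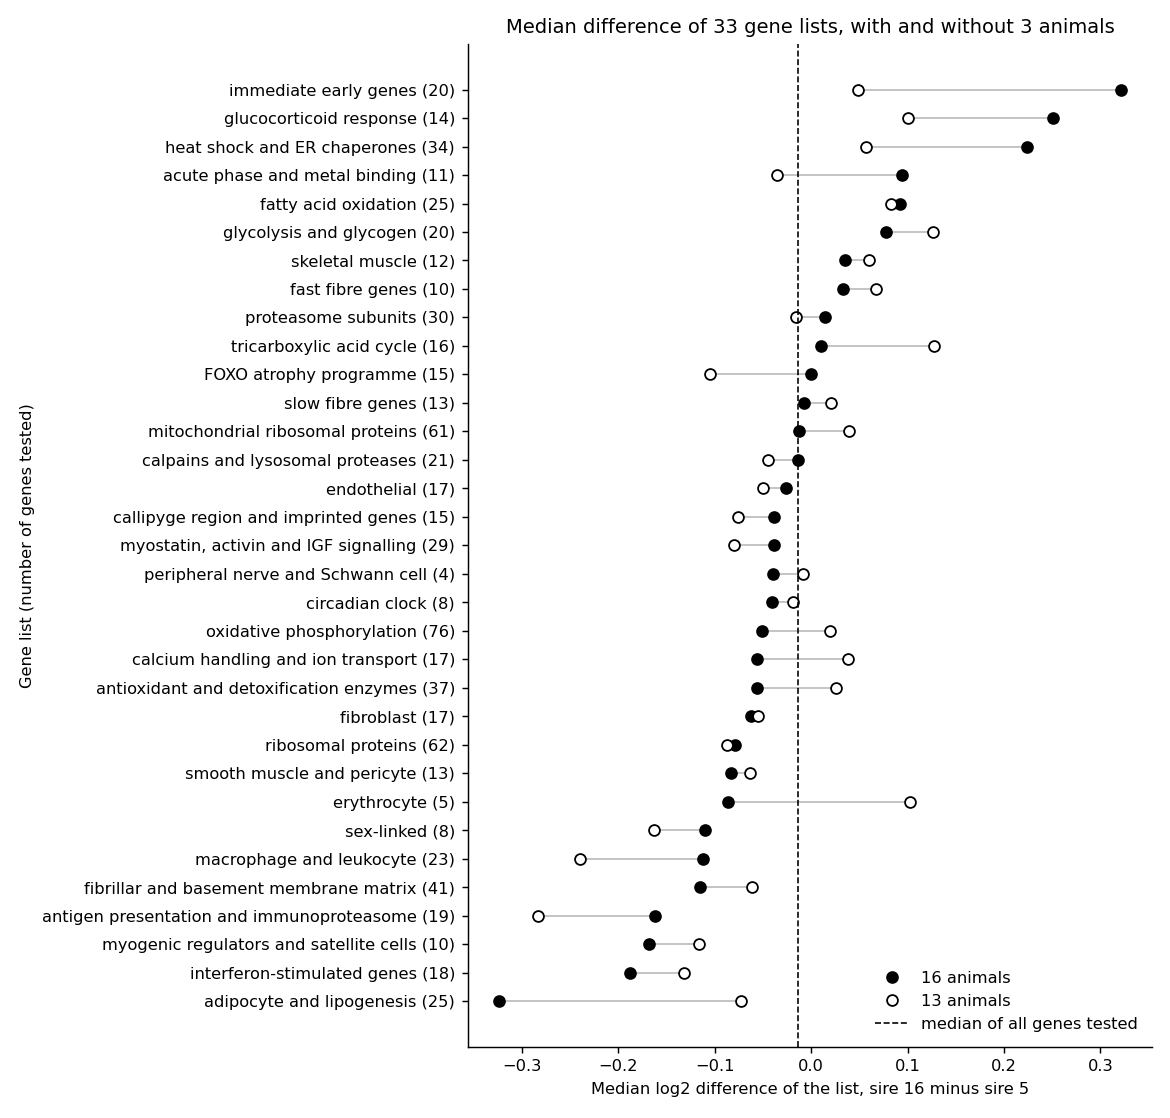
Median log2 difference (horizontal axis, sire 16 minus sire 5) of 33 gene lists, with the number of genes tested in parentheses, filled circles for the 16 animals and open circles for the 13 that are left without progeny 65 of sire 16 and progeny 32 and 94 of sire 5. The dashed line is the median of all genes tested, -0.01, and the medians of immediate early genes (0.32 to 0.05) and of adipocyte and lipogenesis genes (-0.32 to -0.07) move most of those named in the text.

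The lists with the largest medians were those of acute responses and of fat. Immediate early genes, which cells transcribe within minutes of a stimulus, had more signal in sire 16 in 19 of 20, at a median of 0.32. The glucocorticoid response had 14 of 14 (median 0.25) and heat shock proteins and chaperones 29 of 34 (median 0.22). Genes of adipocytes and lipogenesis had less signal in sire 16 in 19 of 25, at a median of -0.32. Over all genes tested, 46.7% had more signal in sire 16 and 53.3% less. Members at an unadjusted p under 0.05 were 2 of 20 immediate early genes (10%), 1 of 14 glucocorticoid response genes (7.14%), 2 of 34 chaperones (5.88%) and 2 of 25 lipogenesis genes (8%), against 6.24% over all genes. With each animal left out, these counts were 2 to 3, 1 to 3, 2 to 8 (the highest without progeny 11 of sire 5) and 1 to 5 (the highest without progeny 61 of sire 16).

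Most of the size of these medians rested on the 3 animals that stand apart. Without them, the median was 0.05 in immediate early genes, with 11 of 20 higher in sire 16, and 0.10 in the glucocorticoid response, with 9 of 14. It was 0.06 in chaperones, with 24 of 34, and -0.07 in lipogenesis, where 11 of 25 were then higher. Over all genes, 3107 of 6360 were then higher in sire 16. DUSP1, a phosphatase that ends MAP kinase signals, had 3362.4 to 5604.8 in sire 16 (median 4582) and 659.2 to 4601.9 in sire 5 (median 2691.55), the lowest being progeny 32. Its difference was 0.93 ± 0.31 (SE, adjusted p = 0.675), and 0.65 without the 3 animals. FKBP5, a co-chaperone of the glucocorticoid receptor, had 82.8 to 339.1 against 59.9 to 289.8 (difference 0.65 ± 0.34, adjusted p = 0.827). HSPH1, a heat shock protein, had 185.8 to 825.2 against 103.4 to 278 (difference 0.75 ± 0.28, adjusted p = 0.705), with its other probe sets at 0.54 to 0.63. Its highest signal was that of progeny 65, and without the 3 animals its difference was 0.31. FOSL2, a subunit of AP-1, differed by 1.38 ± 0.51 (adjusted p = 0.705) at dim signals from 3.4 to 86.8, and by 0.60 with signals under 34.7 raised to that value. Its other probe sets differed by -0.43 and 0.31. FABP5, a fatty acid binding protein, had 5598 to 8830.1 in sire 16 and 3068.9 to 9386 in sire 5 (difference 0.50 ± 0.18, adjusted p = 0.705), against the direction of most of its list. LPL, the lipoprotein lipase, had 227.1 to 560.7 against 321 to 1383.1, a difference of -0.66 ± 0.31 (adjusted p = 0.798), and of -0.33 without the 3 animals.

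**Figure D5:**
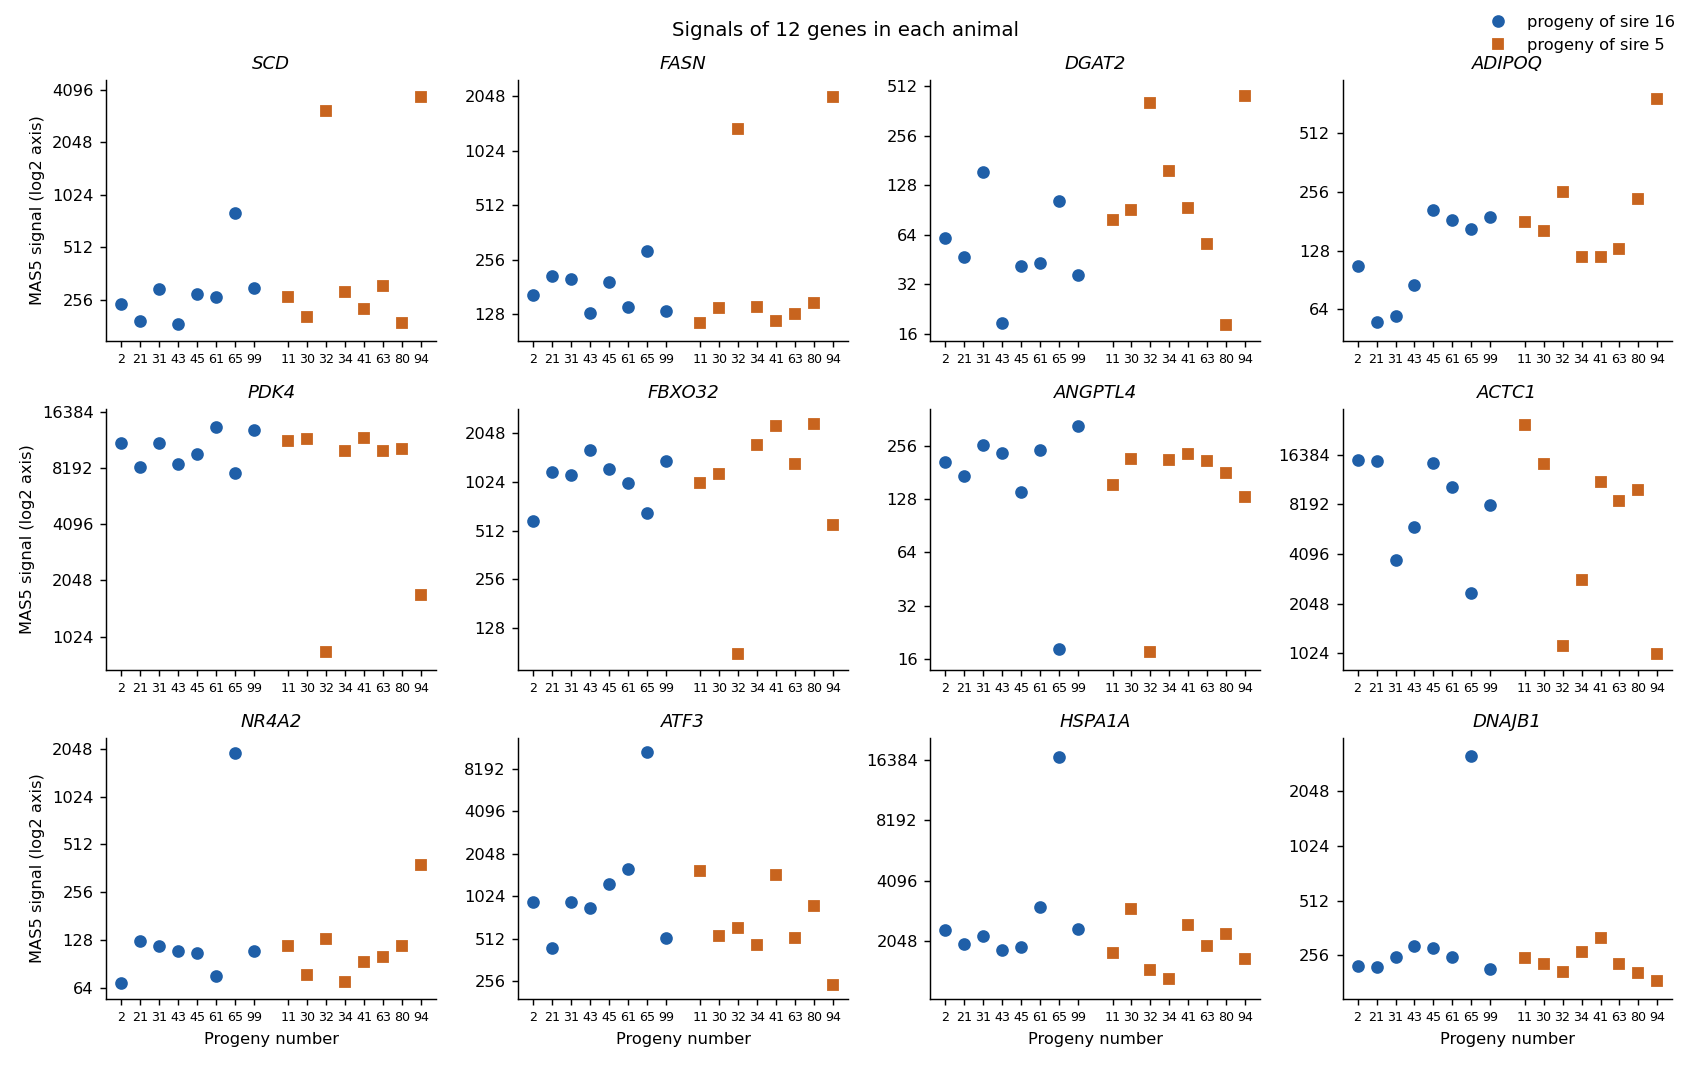
MAS5 signal (vertical axes, log2 scale) of 12 genes in each animal (horizontal axes, progeny number, circles for sire 16 and squares for sire 5), with genes of lipid synthesis and fat in the top row, genes of fasting and atrophy and cardiac actin in the middle and immediate early and heat shock genes at the bottom. SCD and FASN are high in progeny 32 and 94 of sire 5, PDK4 is low in the same 2 animals, ANGPTL4 is low in progeny 65 and 32, and the bottom row is high in progeny 65.

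The 3 animals were described against the other 13, by the 12 genes furthest above and below all of them with a signal of at least 200, which were chosen after their values were seen. Progeny 32 and 94 of sire 5 shared high signals of fatty acid synthesis. SCD, the stearoyl-CoA desaturase, was at 3113.1 in progeny 32 and 3750.9 in progeny 94, and at 186.9 to 307.7 in the 13. FASN, the fatty acid synthase, was at 1341.3 and 2015.7, and at 114.8 to 208.5 in the 13. DGAT2, which makes triglycerides, was at 406.6 and 448.5, and at 18.2 to 157.1 in the 13. Progeny 65 of sire 16 was at 809.4 in SCD and at 288 in FASN, between the pair and the rest. 13 of 25 lipogenesis genes in each animal of the pair were above all 13 others, as were 17.6% of all genes tested in progeny 32 and 13% in progeny 94.

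Genes that muscle expresses in fasting had low signals in all 3 animals, to different degrees. PDK4, a kinase that shuts off pyruvate oxidation, was at 852.5 in progeny 32 and 1715.7 in progeny 94, and at 8277.6 to 13618 in the 13, with progeny 65 just below them at 7750.2. ANGPTL4, an inhibitor of lipoprotein lipase, was at 17.4 in progeny 32, 18.3 in progeny 65 and 132.2 in progeny 94, and at 141 to 332.3 in the 13. Over 15 genes of the FOXO atrophy programme, the median log2 difference from the 13 was -0.67 in progeny 32, with 10 genes below all of them, -0.52 in progeny 65, with 7, and -0.32 in progeny 94, with 5. Over all genes tested, 14.2% were below the 13 in progeny 32, 17.9% in progeny 65 and 12.6% in progeny 94. FBXO32, the ubiquitin ligase atrogin-1, was at 87.9 in progeny 32, against 588.7 to 2329.1 in the 13. For 14 genes of the glucocorticoid response the median difference from the 13 was -1.16 in progeny 32, -0.89 in progeny 94 and -0.09 in progeny 65.

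Markers of fat cells differed within the pair. ADIPOQ, which encodes adiponectin, was at 771.2 in progeny 94 and at 55.3 to 235.7 in the 13, and FABP4, the fatty acid binding protein of adipocytes, was at 3159.3 against 172.9 to 1217.2. In progeny 32, ADIPOQ was at 255.7, just above the 13, and FABP4 at 1009.7, within their range. The part of fat cells in these signals was not tested. TNFRSF12A, the receptor of the cytokine TWEAK, was at 181.9 in progeny 94 and at 2384.2 to 8103.2 in the 13, the farthest below in that animal. RCAN1, an inhibitor of calcineurin, was at 265 against 1377.3 to 4659.3.

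Progeny 65 of sire 16 had high signals of stress genes. NR4A2, a nuclear receptor of the immediate early class, was at 1909.7, and at 69 to 127 in the 13, a signal 17.9-fold over their median. The heat shock genes DNAJB1 and HSPA1A were at 3229.4 and 16867, against 203.4 to 319.8 and 1329.5 to 3039.4, and ATF3, a stress transcription factor, was at 10817.7 against 437.3 to 1592.8. 18 of 20 immediate early genes were above the median of the 13, with a median difference of 1.09 on the log2 scale. In progeny 32 of sire 5, 18 of the 20 were below it, with a median difference of -1.12, and in progeny 94, 17 of the 20, with -0.49. Above all 13 were 10 of the 20 in progeny 65, against 10.7% of all genes tested. Below all 13 were 11 in progeny 32 and 3 in progeny 94, against 14.2% and 12.6% of all genes tested.

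Some genes moved alike in all 3. ACTC1, the cardiac actin that is also made in growing skeletal muscle, was at 2387.5 in progeny 65, 1132 in progeny 32 and 1019.4 in progeny 94, below the 13 at 2862.8 to 24941.9. Glycolysis and glycogen genes were above the median of the 13 in 18 of 20 in progeny 65, 18 of 20 in progeny 32 and 15 of 20 in progeny 94. Above all 13 were 10, 11 and 7 of the 20, against 10.7%, 17.6% and 13% of all genes tested. The list mean was 12.46, 12.46 and 12.36 on the log2 scale, above all 13 at 11.86 to 12.17. Fibrillar and basement membrane matrix genes were lower in progeny 65 (35 of 41) and progeny 32 (36 of 41), but higher in progeny 94 (28 of 41). Below all 13 were 16 of the 41 in progeny 65 and 14 in progeny 32, against 17.9% and 14.2% of all genes tested. In progeny 94, 10 of the 41 were above all 13, against 13% of all genes tested.

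2 genes split the animals within both families. XIST, the transcript that silences an X chromosome and is made in females, had signals of 528 to 834.8 in 2 of the 8 progeny of sire 16 (45 and 99) and in 4 of the 8 progeny of sire 5 (11, 41, 63 and 94). In the other animals it was 7.8 to 80. The labels give no sex. With log2 XIST as a covariate the number of called genes was 0 and that at an unadjusted p under 0.05 was 357, and the difference was 1.72 in TIMELESS and 1.24 in LRRC2. BOLA-DQB1, a chain of the class II histocompatibility complex, was at 41.4 in progeny 61 of sire 16 and at 32.2 in progeny 11 of sire 5, and at 578.6 or more in the other 14. BOLA-DQA1 was lowest in the same 2 animals, at 56.9 and 55. BOLA-DQA2, a further class II chain, was instead highest in these 2 animals, at 1807.4 and 2211.9. Between the families, the probe set used for BOLA-DQB1 differed by 0.39 and its other probe sets by -0.85 to -0.34. What lies behind these low and high signals was not tested.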

How the data were processed

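The data were MAS5 signals of the Affymetrix bovine genome array, which the authors deposited as intensity values on a linear scale, 1 value per probe set and animal. The version of MAS5 is not given in the sources used here. Each array had been scaled so that its mean, with 2% trimmed at each end, is 200. Because the probes are bovine and the samples ovine, signals of different probe sets were not compared as amounts.

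The log2 of each deposited intensity was taken with no pseudocount. Of 24016 probe sets other than controls, 13292 had 1 gene symbol in the platform annotation, 86 had several and 10638 had none. Of several probe sets for a gene, that with the highest mean signal over 40 arrays was used. The 6360 genes of 9155 with a mean signal of at least 61.8 were tested. The test between sires 16 and 5 was that of limma (version 3.58.1 under R 4.3.3; lmFit and eBayes, 8 against 8 arrays, no covariate), two-sided, with Benjamini-Hochberg adjustment and a threshold of 0.05. Differences are sire 16 minus sire 5 on the log2 scale, ± SE, and intervals are 95%. The fit was tested on simulated data, in which 0.141% of unchanged genes were called. Measures of the arrays were compared by exact permutation in Python 3.11.15.

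The animals and the gene lists were chosen with earlier results of these data known. The 12 leading genes are the 6 with the smallest p in each direction, since 0 were called. In each list the 3 members with the smallest p could be named, with MSTN, IGF2 and DLK1 added. CKM, MYH1 and MYH7, as defining markers, PPP4R3B and the genes of single animals were named after their values were seen. Called genes were not placed on chromosomes, since there were none. Alternatives covered filters, normalization, floors, probe sets, arrays in the fit, weights, covariates and each animal left out.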

Additional observations from a re-analysis of the deposited data

Results flagged for a closer look

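For some genes and scores named above, 1 animal stood away from the other 7 of its family by more than Dixon's limit of 0.526. The ratio is the gap to the nearest animal divided by the range. For genes it was taken on log2 signals, while the signals printed beside it are on the linear scale. Chance gives a ratio over the limit in about 1 in 20 groups. Many of these genes, and the 3 animals, were chosen because the values stood apart, so the number found is not to be read against chance.

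In progeny 65 of sire 16, the ratio was 0.893 for DNAJB1, 0.816 for NR4A2, 0.779 for HSPA1A, 0.677 for SCD and 0.597 for ATF3, all high, and 0.738 for LRRC2, 0.704 for ANGPTL4 and 0.594 for RSAD2, all low. ANGPTL4 was at 18.3 in this animal and at 141 to 332.3 in the rest of its family. The ratio was 0.726 for the score on the first principal component and 0.743 for that on the second.

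In progeny 32 of sire 5, the ratio was 0.786 for ANGPTL4 (17.4 against 132.2 to 229.6), 0.71 for CTSC (17.8 against 77.8 to 142.1), 0.674 for PARP14 (131.1 against 224 to 290.3) and 0.561 for FBXO32 (87.9 against 553 to 2329.1), all low. In progeny 94 of sire 5, it was 0.633 for NR4A2 (383.3 against 70.4 to 131.2) and 0.588 for ADIPOQ, both high, and 0.545 for TNFRSF12A (181.9 against 1438.2 to 8103.2), low.

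Other animals were each low in 1 or 2 genes. BOLA-DQB1 gave 0.684 in progeny 61 of sire 16 and 0.599 in progeny 11 of sire 5, and PFKM gave 0.58 in the latter animal (6942.4 against 8916.2 to 10684.5). FOSL2 gave 0.667 in progeny 45 of sire 16 (13 against 46.1 to 86.8), NNAT 0.577 in progeny 21 of sire 16 (18.6 against 55.3 to 123.1) and PPP4R3B 0.549 in progeny 2 of sire 16 (433.4 against 487.9 to 537.7). No cause was tested for any of these.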

How the results depend on the processing

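The count of called genes, 0 in the report, was also 0 under most of the 30 alternatives, as was the count among the members of the gene lists in all of them. It was 1 with a floor at the 20th percentile of the signals (TIMELESS, higher in sire 16, adjusted p = 0.00678) and 1 with array quality weights (LRRC2, higher, adjusted p = 0.00913). It was 2 with all 40 arrays in the fit, of which 1 was higher (TIMELESS) and 1 lower in sire 16 (CIBAR1), both with an adjusted p of 0.0158, and 1 when the 3 animals that stand apart were left out, which was added with the data in view (LRRC2, higher). With each animal left out in turn, the total and the number higher in sire 16 were 0 to 1 (LRRC2 without progeny 65 of sire 16, TIMELESS without progeny 41 or 63 of sire 5), and the number lower was 0. Over the alternatives, the adjusted p of TIMELESS was 0.00678 to 0.821 and that of LRRC2 0.00127 to 0.684, the highest of each with the mean over all probe sets.

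The 397 genes at an unadjusted p under 0.05 were 236 with a mean signal of at least 200, where fewer genes were tested, and 344 to 436 with each animal left out. Directions turned in 4 genes that were far from a call. The difference of MSTN was -0.0123 to 0.2392 with each animal left out, at -0.0123 and -0.0051 without progeny 11 or 80 of sire 5. That of DLK1 was -0.1465 to 0.0632, at 0.0632, 0.0401, 0.0302 and 0.033 without progeny 43 or 99 of sire 16 or progeny 11 or 30 of sire 5. CKM was at -0.0348 after quantile normalization and MYH7 at -0.1841 with the mean over all probe sets. For these, the cause was not tested. The difference of the first principal component, -2.55, was -5.84 to 2.13 with each animal left out, turning to 2.1329 without progeny 32 and to 0.3879 without progeny 94 of sire 5. That of the second, -8.88, was -11.2248 to -4.1303, with an exact permutation p of 0.0193 without progeny 11 of sire 5.

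No paired analysis was possible because the progeny numbers name single animals and are not shared between the families. With 8 animals per family the number of arrays limits the precision, and the signals of TIMELESS in sire 5 were dim, with a median of 28.15 under the floor of 34.7.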
